A study of Mus musculus with 12 samples.

Results

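The genes described here are 6 matrix metalloproteinases (Mmp2, Mmp3, Mmp7, Mmp9, Mmp12 and Mmp14) and 4 tissue inhibitors of metalloproteinases (Timp1, Timp2, Timp3 and Timp4), which make up 10 of the 19938 genes measured in mouse kidney. They were chosen by name, and the choice also drew on the observation that Mmp12 and Timp1 are higher in KL null kidney. The values of KL null against wild-type vehicle are therefore given for these 10 genes as a description, with no test. Each of the 10 was read by 1 probe set.

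Total kidney RNA of female mice was hybridised to 12 whole-transcript arrays, 4 in each of 3 groups. The first group held wild-type mice of strain label C57BL/6 that received recombinant FGF23, a phosphate-lowering hormone from bone, at 500 ng per g body weight into the peritoneum. The second held KL null mice of strain label 129/SvEv/C57BL/6 that received 100 µl of saline. KL null mice lack klotho, the co-receptor through which FGF23 acts on the kidney. The third held wild-type C57BL/6 mice that received 100 µl of saline and served as the vehicle controls. All mice had spent 5 to 8 weeks on standard diet and were killed 1 hour after the injection. Age is given only through these weeks on diet. Genotype and strain label go together, so they cannot be told apart, and the labels do not say whether each array came from its own mouse.

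Matrix metalloproteinases (MMPs) are zinc-dependent enzymes, secreted or held at the cell surface, that cut collagens, elastin and other proteins of the extracellular matrix and release growth factors from it. They are made as inactive proenzymes. TIMPs bind the active site and shut the enzymes off, and the balance between the families sets how fast matrix is turned over. In kidney the gelatinases and their activator are known mainly from stromal and glomerular cells, macrophage elastase from infiltrating macrophages, and matrilysin and Timp1 as genes that are low in healthy tissue and induced by injury.

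Kl, the targeted gene, had log2 signals of 9.66, 9.76, 9.66 and 9.8 in KL null kidneys and of 10.44 to 10.61 in FGF23 kidneys, against 10.67, 10.45, 10.74 and 10.58 in vehicle kidneys. The part of the transcript its probe set reads is not known here. The 7 measured markers of kidney tubule and glomerulus had a mean signal of 11.13 to 11.21 on KL null arrays and 11.22 to 11.34 on FGF23 arrays, against 11.28 to 11.4 on vehicle arrays. In KL null 3 of them were called lower, where 4.44% of all genes were, namely Lrp2 (-0.50), Slc12a3 (-0.32) and Slc34a1 (-0.27). The other 4 did not pass, with Umod (0.06) and Slc12a1 (0.15) slightly higher and Aqp2 (-0.18) and Nphs1 (-0.24) lower. The mean of the 5 markers of adrenal gland, pancreas, liver and fat lay between 5.07 and 5.79 on every array. Among them Alb, the albumin gene, was called lower in KL null (-1.22, limma adjusted p = 0.0194), and the others did not pass. The standard deviation of the log2 values was lowest on WT FGF23 replicates 1 and 2 (2.166 and 2.167) and on KL null replicates 1 and 2 (2.195 and 2.217), and lay between 2.23 and 2.281 on the other 8 arrays. In bulk RNA, fewer cells of a type and less RNA per cell cannot be told apart.

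**Figure D1:**
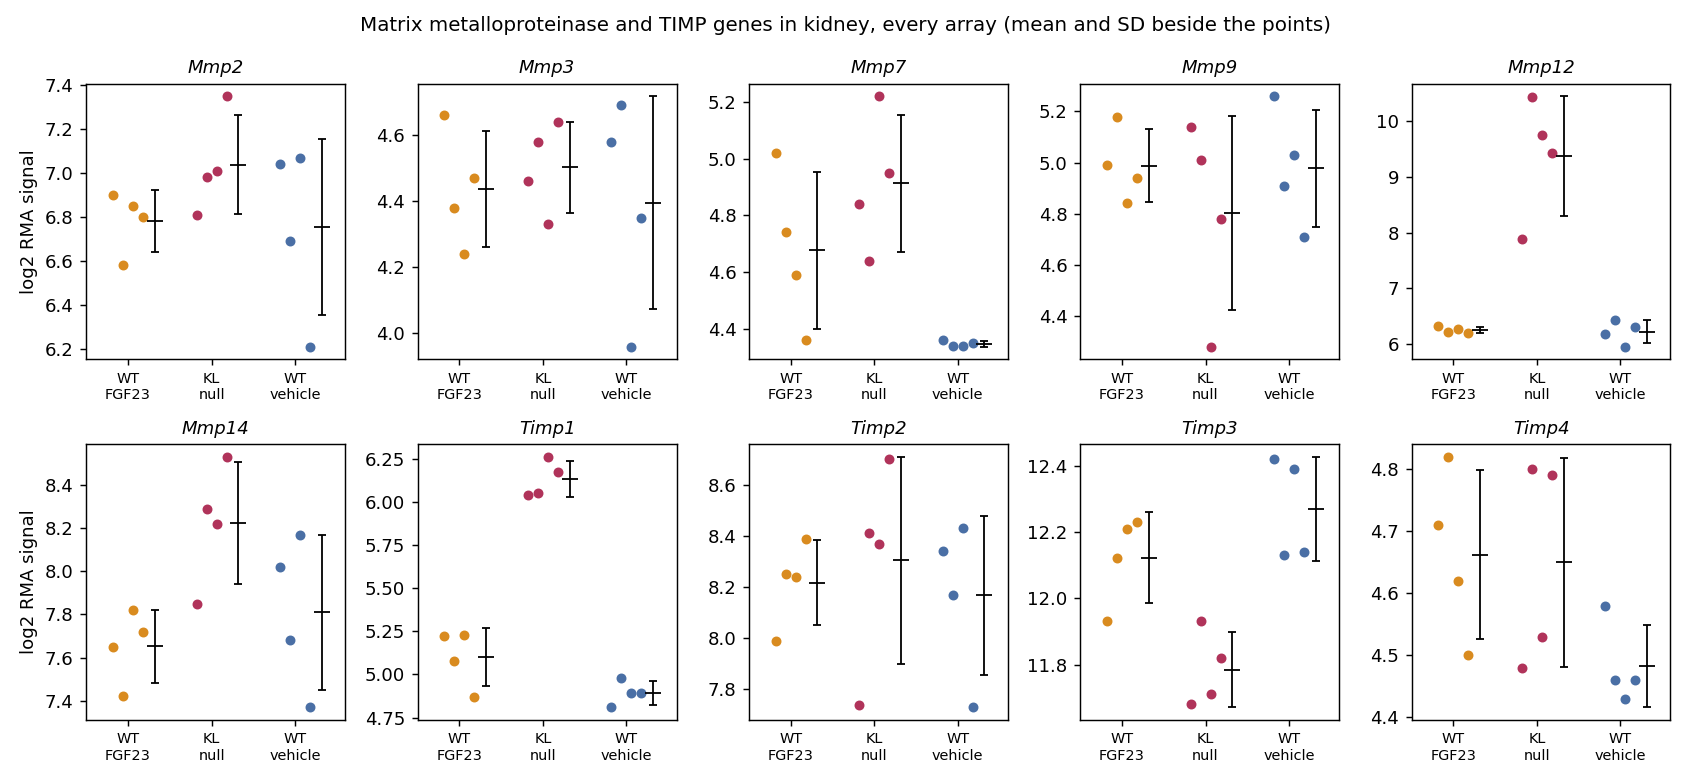
Log2 RMA signal of each of the 10 genes on every array, with WT FGF23, KL null and WT vehicle from left to right in each panel; bars beside the points give the mean and SD over 4 arrays, and the vertical axes differ between panels. For Mmp12 and Timp1 the 4 KL null points lie above all 8 wild-type points, and for Timp3 they lie below the 4 vehicle points.

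Mmp12 encodes macrophage elastase, which degrades elastin and is made mostly by macrophages. Its log2 signal was 7.88, 10.42, 9.74 and 9.43 in KL null kidneys, against 6.18, 6.44, 5.96 and 6.31 in vehicle kidneys. The lowest KL null array stood above every wild-type array, since the 4 FGF23 arrays lay between 6.21 and 6.33. The means were 9.37 ± 1.07 in KL null and 6.22 ± 0.21 in vehicle kidneys (SD, n = 4 each), a log2 difference of 3.15 (SE 0.352) or 8.85-fold. The spread among KL null arrays covered 2.54 log2 units, the widest of the 10 genes in any group, and replicate 1 was the low one.

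The gene whose signals over the 12 arrays were most like those of Mmp12 was Gpnmb, a glycoprotein of activated and lipid-laden macrophages (Pearson's r = 0.989). Gpnmb read 5.9, 8.99, 8.27 and 8.24 in KL null kidneys, so that the KL null array lowest in Mmp12 was also the lowest in Gpnmb, and the highest was the same too. With group means removed, the r between these genes was 0.976 over 12 arrays and 0.693 over 10, without KL null replicates 1 and 2. The next most alike were Cyp2j9 (0.972), Trp53inp1 (0.968), Upp2 (0.967) and Cacna1d (0.964). These values compare genes read from the same RNA and scan on each array. The step between KL null and wild type accounts for part of each r in which group means were kept.

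Markers of macrophages were also higher in KL null kidneys. Of 14 such genes, 8 were called higher and 1 lower (limma, adjusted p below 0.05), where 3.58% of all genes were called higher and 4.44% lower. Lyz2, the lysozyme of myeloid cells, was higher by 1.71 (adjusted p = 0.0011) and Itgam, the CD11b integrin, by 0.88 (adjusted p = 0.00159). Csf1r, the receptor for the macrophage growth factor CSF1, was lower by 0.55 (adjusted p = 0.0321), and Adgre1, a surface receptor of mouse macrophages, was at 6.70 in KL null and 6.45 in vehicle kidneys (adjusted p = 0.444). The mean signal of the 14 genes was 6.7 to 7.43 on KL null arrays, against 6.39 to 6.78 on vehicle arrays, and KL null replicate 1 again read lowest. Without KL null replicates 1 and 2, left out together as a choice made after seeing the data, the counts were 8 higher and 0 lower, so the Csf1r call was lost. Csf1r itself read 7.8, 8.41, 8.1 and 8.37 in KL null kidneys, each below the 4 vehicle arrays at 8.64 to 8.8. Within groups the marker mean and Mmp12 had an r of 0.692 over 12 arrays, which was -0.251 over 10 without those same arrays, so that relation rests on them. Of 7 markers of lipid-laden or injury macrophages, 4 were called higher in KL null, Gpnmb and Apoe among them, and 1 lower. The lower one was Lpl (-0.995, limma adjusted p = 0.0483), while Trem2 (adjusted p = 0.075) and Fabp5 (adjusted p = 0.987) did not pass. The shares of all genes were the same 3.58% and 4.44%. None of the 10 neutrophil markers and none of the 7 lymphocyte markers passed in this comparison. The part of these cell types in the Mmp12 signal was not tested.

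**Figure D2:**
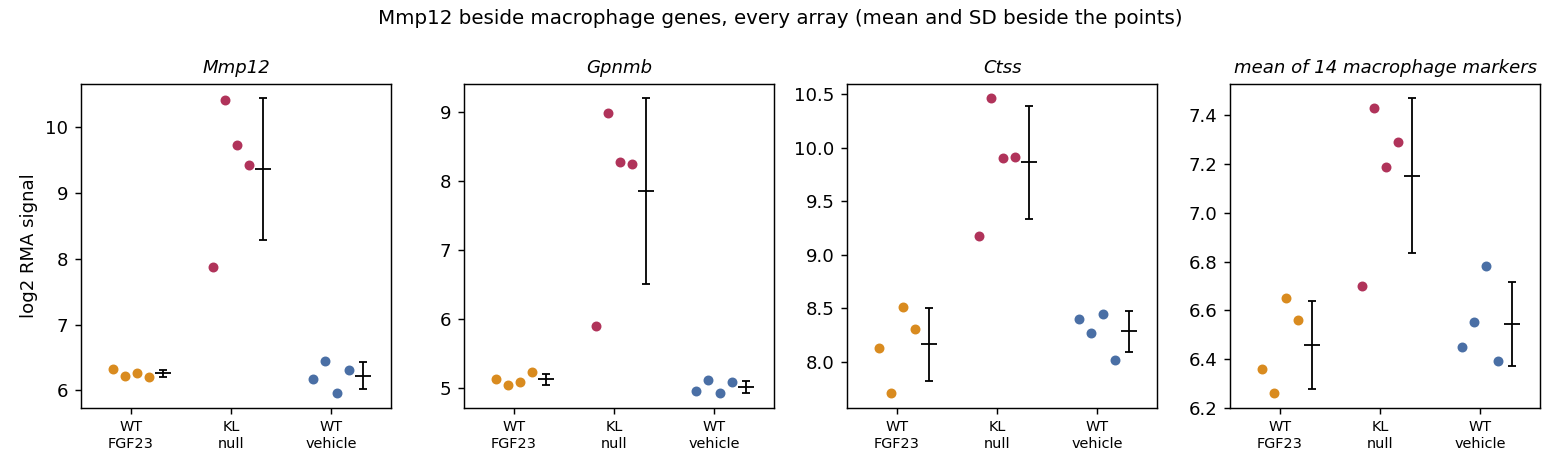
Log2 RMA signal on every array for Mmp12, Gpnmb, the macrophage protease gene Ctss and the mean of 14 macrophage markers, with WT FGF23, KL null and WT vehicle from left to right and bars for mean and SD over 4 arrays. KL null replicate 1, the leftmost KL null point, is the lowest of its group in all 4 panels, at 7.88 for Mmp12 and 6.7 for the marker mean.

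Mmp7 encodes matrilysin, a small epithelial protease that lacks the hemopexin domain of most MMPs. It read 4.84, 4.64, 5.22 and 4.95 in KL null kidneys, against 4.36, 4.34, 4.34 and 4.35 in vehicle kidneys, which did not overlap (log2 difference 0.57, SE 0.133). In FGF23 kidneys it read 5.02, 4.74, 4.59 and 4.36. Thus 3 of the 4 FGF23 arrays lay above every vehicle array, and the vehicle arrays were within 0.02 of each other. The difference of FGF23 from vehicle was 0.33 (95% interval 0.05 to 0.61) and missed the threshold over all genes (limma adjusted p = 0.286). The 2 highest FGF23 values came from replicates 1 and 2, the arrays of lowest spread. Without replicate 1 the difference was 0.22 (adjusted p = 0.59), and without both 0.13 (adjusted p = 0.996). Mmp7 lay at the 21.0 percentile of gene means, and Mmp3 (18.1), Timp4 (20.3) and Mmp9 (24.9) were low as well. RMA compresses differences of genes as dim as these.

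Mmp3, stromelysin-1, which cuts proteoglycans and activates other pro-MMPs, read 4.46, 4.58, 4.33 and 4.64 in KL null kidneys, against 4.58, 4.69, 3.96 and 4.35 in vehicle kidneys. FGF23 arrays lay between 4.24 and 4.66, and the 3 groups overlapped. The log2 difference from vehicle was 0.11 (SE 0.14) in KL null, or -0.04 without WT vehicle replicate 3, and 0.04 (95% interval -0.26 to 0.34, adjusted p = 0.897) after FGF23.

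Mmp3, Mmp7 and Mmp12 lie in a run of 10 MMP genes on chromosome 9 with no other protein-coding gene between them, in the order Mmp13, Mmp12, Mmp1b, Mmp3, Mmp1a, Mmp10, Mmp8, Mmp27, Mmp20 and Mmp7. Mmp13, the collagenase gene next to it, fell by 0.60 in KL null (SE 0.123, adjusted p = 0.00812), with 5.89, 5.71, 5.9 and 5.53 in KL null kidneys, against 6.27, 6.39, 6.48 and 6.27 in vehicle kidneys. On its other side Mmp1b had a log2 difference of -0.07 (SE 0.097, adjusted p = 0.76). The remaining genes outside the 10 members, Mmp1a, Mmp10, Mmp8, Mmp27 and Mmp20, had differences between -0.12 and 0.03 in KL null, and none passed.

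**Figure D3:**
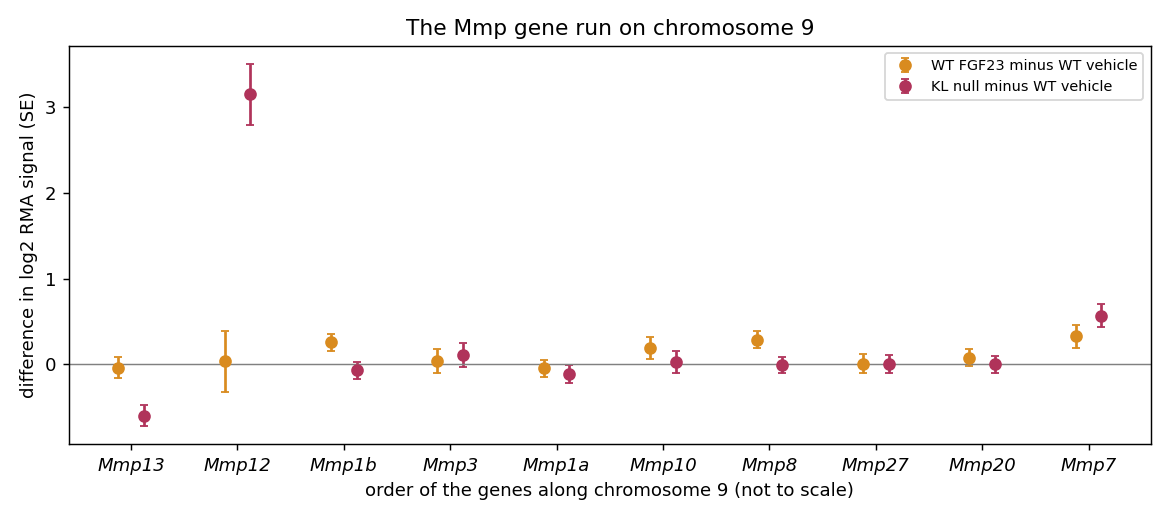
Difference in log2 RMA signal from WT vehicle, with its SE, for the 10 MMP genes in their order along chromosome 9; orange points are WT FGF23 and red points KL null, 4 arrays per group. Mmp12 stands at 3.15 in KL null between Mmp13 at -0.60 and Mmp1b at -0.07, and Mmp7 at the far end stands at 0.57.

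Promoter windows of 8 of the 10 members (all but Mmp2 and Mmp9) were found in the RefSeq table of GRCm38.p6, which lists 10 windows for them, each with 250 bases before and 50 bases from a transcription start on. AP-1, the dimer of FOS and JUN proteins that drives many MMP genes, binds sites of the form TGANTCA, which reads alike on both strands. A match was present in 3 of the 10 windows, 1 each of Mmp3, Mmp7 and Mmp12, and in 7.81% of all 32851 windows. The 250 bases before those starts are printed with the match in capitals, followed by the same stretch for Timp1 with AGGAAG, a PEA3 site of ETS factors, in capitals. All are on the plus strand of GRCm38.p6, at chr9:7347124-7347373 for Mmp12, chr9:7445572-7445821 for Mmp3, chr9:7691840-7692089 for Mmp7 and chrX:20869916-20870165 for Timp1.
Mmp12: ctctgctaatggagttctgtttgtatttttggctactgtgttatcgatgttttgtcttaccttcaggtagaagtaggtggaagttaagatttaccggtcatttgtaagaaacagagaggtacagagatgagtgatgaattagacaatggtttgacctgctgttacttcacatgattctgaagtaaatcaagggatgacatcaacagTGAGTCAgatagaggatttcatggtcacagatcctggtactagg
Mmp3: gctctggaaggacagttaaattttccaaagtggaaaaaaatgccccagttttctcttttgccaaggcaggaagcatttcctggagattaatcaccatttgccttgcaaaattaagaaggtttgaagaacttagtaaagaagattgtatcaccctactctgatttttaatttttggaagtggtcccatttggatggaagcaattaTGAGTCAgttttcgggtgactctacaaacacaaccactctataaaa
Mmp7: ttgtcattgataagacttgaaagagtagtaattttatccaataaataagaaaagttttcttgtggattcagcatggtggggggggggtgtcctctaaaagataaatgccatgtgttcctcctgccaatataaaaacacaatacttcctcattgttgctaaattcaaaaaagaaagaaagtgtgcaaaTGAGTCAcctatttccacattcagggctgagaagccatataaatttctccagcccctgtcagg
Timp1: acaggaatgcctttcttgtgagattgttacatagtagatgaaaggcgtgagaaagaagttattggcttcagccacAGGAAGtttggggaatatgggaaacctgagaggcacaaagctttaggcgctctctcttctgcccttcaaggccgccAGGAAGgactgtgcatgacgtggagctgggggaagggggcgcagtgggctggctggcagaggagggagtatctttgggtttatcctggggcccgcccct

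The 3 AP-1 matches all had the letters TGAGTCA and began 44 bases before the start in Mmp12, 46 in Mmp3 and 63 in Mmp7. Mmp12 and Mmp7 each have 2 listed starts. The match is in the window of the second start of Mmp12 and of the first start of Mmp7, and their other windows had none. AGGAAG was present on either strand in 8 of the 10 windows, all but those of Timp2 and the second start of Mmp12, and in 35.4% of all windows. Capitals mark it in Timp1 alone, where it stood 175 and 99 bases before the start and once more after it. TATAAA was found in the same 3 windows as the AP-1 letters, 26 and 123 bases before the start in Mmp7, 7 before it in Mmp3 and 5 bases after it in Mmp12, and in 13.6% of all windows. These letters are a description of the sequence only. Of the genes with the AP-1 letters, Mmp12 and Mmp7 were higher in KL null than in vehicle without overlap, as were 6.35% of all genes. Mmp3 overlapped, and Mmp7 did so with the FGF23 arrays. Timp1, whose window lacks the AP-1 letters, was also higher than vehicle without overlap, and like Mmp12 it lay clear of all 8 wild-type arrays. None of these genes passed after FGF23. The choice of genes drew on Mmp12 and Timp1 in KL null, so nothing is read from this, and a tie between letters and signals was not tested.

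The gelatinases cut denatured collagen and the type IV collagen of basement membranes. Mmp2, gelatinase A of stromal cells, read 6.81, 6.98, 7.01 and 7.35 in KL null kidneys and between 6.58 and 6.9 in FGF23 kidneys, against 7.04, 6.69, 7.07 and 6.21 in vehicle kidneys. The groups overlapped, with a log2 difference of 0.29 (SE 0.165) in KL null and 0.03 (95% interval -0.32 to 0.38, adjusted p = 0.941) after FGF23. Without WT vehicle replicate 4 these differences were 0.10 and -0.15, so their size rests on this array. Mmp9, gelatinase B of neutrophils and macrophages, read 5.14, 5.01, 4.28 and 4.78 in KL null kidneys, against 5.26, 4.91, 5.03 and 4.71 in vehicle kidneys. It overlapped as well, with a difference of -0.18 in KL null (SE 0.161), which was -0.001 without KL null replicate 3 and -0.45 without KL null replicates 1 and 2. After FGF23 its difference was 0.01 (95% interval -0.33 to 0.35, adjusted p = 0.981).

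Mmp14, the membrane-bound MT1-MMP, activates pro-Mmp2 at the cell surface with Timp2 as the bridge between them. It read 7.85, 8.29, 8.22 and 8.53 in KL null kidneys, against 8.02, 7.68, 8.17 and 7.37 in vehicle kidneys. The highest vehicle value exceeded the lowest KL null value, and the log2 difference was 0.41 (SE 0.167), or 0.27 without WT vehicle replicate 4. In FGF23 kidneys it read 7.65, 7.42, 7.82 and 7.72, a difference of -0.16 from vehicle (95% interval -0.51 to 0.20, adjusted p = 0.646).

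Timp2 read 7.74, 8.41, 8.37 and 8.7 in KL null kidneys, against 8.34, 8.17, 8.43 and 7.73 in vehicle kidneys, and the groups overlapped throughout. FGF23 arrays lay between 7.99 and 8.39. The difference was 0.14 (SE 0.182) in KL null and 0.05 (95% interval -0.34 to 0.44, adjusted p = 0.907) after FGF23. The KL null difference was -0.008 without WT vehicle replicate 4, 0.006 without KL null replicate 4 and 0.33 without KL null replicate 1, so single arrays decide it. The low arrays were the same as for Mmp14, WT vehicle replicate 4 and KL null replicate 1.

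Mmp2, Mmp14 and Timp2 thus varied together from array to array within the groups. With group means removed, r over the 12 arrays was 0.937 for Mmp2 with Mmp14, 0.857 for Mmp14 with Timp2 and 0.756 for Mmp2 with Timp2, the 3 highest of the 45 pairs among the 10 genes, whose median r was 0.125. Without the 2 arrays farthest from the median on the first gene named, these values were 0.9, 0.664 and 0.62 over 10 arrays. Among 19937 genes ranked by the r over 12 arrays, Mmp14 stood at 4 for Mmp2. Timp2 stood at 74 for Mmp14 and at 222 for Mmp2, so many other genes had a higher r. The mean of 9 fibroblast and pericyte markers moved with Mmp2, Mmp14 and Timp2, with r of 0.887, 0.931 and 0.87 in that order. Without WT vehicle replicate 4 and KL null replicate 1 these were 0.729, 0.849 and 0.663. That marker mean was 7.68 on WT vehicle replicate 4 and 7.98 on KL null replicate 1, each the lowest of its group. The mean of the 14 macrophage markers also moved with these genes (r of 0.522 for Mmp2, 0.761 for Mmp14 and 0.76 for Timp2), as did the spread of log2 values per array (r of 0.477, 0.656 and 0.615 in the same order). The part of stromal cells, macrophages or array quality in this pattern was not tested.

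**Figure D4:**
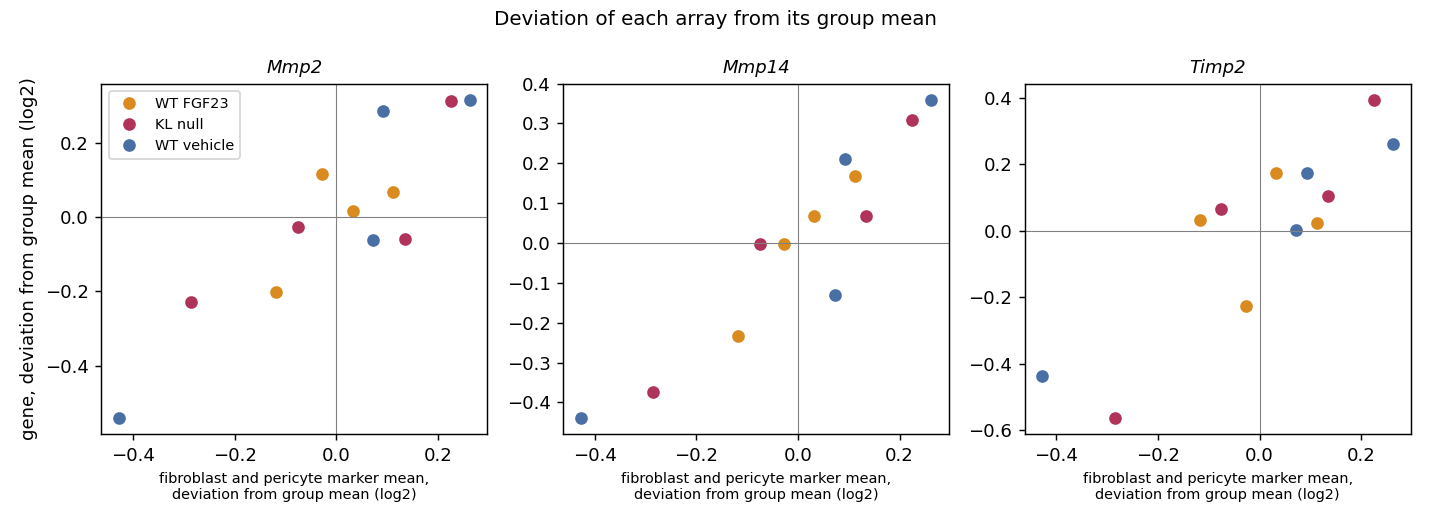
Deviation of each array from its group mean for Mmp2, Mmp14 and Timp2 (vertical, log2) against the deviation of the mean of 9 fibroblast and pericyte markers (horizontal, log2), with 1 point per array coloured by group. Over the 12 arrays r is 0.887 for Mmp2, 0.931 for Mmp14 and 0.87 for Timp2, and the leftmost point in each panel is WT vehicle replicate 4.

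Timp1 encodes a secreted inhibitor that is strongly inducible. It read 6.04, 6.05, 6.26 and 6.17 in KL null kidneys and 5.22, 5.08, 5.23 and 4.87 in FGF23 kidneys, against 4.81, 4.98, 4.89 and 4.89 in vehicle kidneys. All KL null arrays lay above all 8 wild-type arrays, and unlike Mmp12 they lay within 0.22 of each other. The means were 6.13 ± 0.11 in KL null and 4.89 ± 0.07 in vehicle kidneys (SD, n = 4 each), a log2 difference of 1.24 (SE 0.093) or 2.36-fold. After FGF23, 3 of 4 arrays exceeded every vehicle array, and the difference of 0.21 (95% interval 0.01 to 0.41) missed the threshold too (limma adjusted p = 0.308).

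KL null replicate 1, the low array for Mmp12, was by 0.01 the lowest for Timp1 too, but here the 4 KL null values were close to each other. The genes most like Timp1 over the 12 arrays were Apoe (r = 0.968), Rbm3 (0.965), Rpl6 (0.961), Gpc3 (0.955) and Eif2b3 (0.953). With group means removed, r was 0.545 for Apoe, 0.677 for Rbm3, 0.892 for Rpl6, 0.278 for Gpc3 and 0.397 for Eif2b3, so for Gpc3 and Eif2b3 most of the likeness is the step between KL null and wild type. Of 6 markers of injured tubules, 3 were called higher in KL null, where 3.58% of all genes were, namely Lcn2 by 2.39 (adjusted p = 0.000486), Vcam1 by 0.83 (adjusted p = 0.000486) and Krt20 by 0.99 (adjusted p = 0.0184). Sox9 (-0.07, adjusted p = 0.822) and Clu (0.13, adjusted p = 0.682) did not pass. The mean over the 6 genes was 7.15 to 8.02 on KL null arrays, against 6.44 to 7.6 on vehicle arrays. Havcr1, which encodes the injury marker kidney injury molecule, read 6.24 to 7.26 in KL null kidneys, against 4.59 to 5.17 in 3 vehicle kidneys and 10 in WT vehicle replicate 1 (adjusted p = 0.843). That array and WT FGF23 replicate 4, at 9.87, stood far above the other wild-type arrays for it, while neither was high for Timp1. The part of injured tubules in the Timp1 signal was not tested.

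Timp3 binds to the extracellular matrix and also inhibits ADAM17. It read 11.68, 11.93, 11.71 and 11.82 in KL null kidneys, against 12.42, 12.13, 12.39 and 12.14 in vehicle kidneys, so that it ran opposite to Timp1. The groups did not overlap, and the log2 difference was -0.49 (SE 0.099), with KL null 1.40-fold lower. FGF23 arrays read 11.93, 12.12, 12.21 and 12.23, of which the lowest equalled the highest KL null array. The difference after FGF23 was -0.15 (95% interval -0.36 to 0.06, adjusted p = 0.465). Endothelial markers were at a mean of 8.9 to 9.02 on KL null arrays and 9.15 to 9.2 on vehicle arrays, and none of those 5 genes passed. The mean of the tubule and glomerulus markers also separated these groups. Of the 7 genes 4 separated downward, where 7.44% of all genes did, while Umod (0.06) and Slc12a1 (0.15) were slightly higher and overlapped. Lrp2, the marker with the largest decrease, read 12.23, 12.24, 12.19 and 12.22 in KL null kidneys. In vehicle kidneys it read 12.75, 12.6, 12.82 and 12.72 (limma adjusted p = 0.00175). The part of these cells in the Timp3 signal was not tested.

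Timp4, an inhibitor known best from heart and brain, read 4.48, 4.8, 4.53 and 4.79 in KL null kidneys and between 4.5 and 4.82 in FGF23 kidneys, against 4.58, 4.46, 4.43 and 4.46 in vehicle kidneys. The groups overlapped in each comparison. The difference was 0.17 (SE 0.097) in KL null and 0.18 (95% interval -0.03 to 0.39, adjusted p = 0.376) after FGF23.

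FGF23 against vehicle asks which kidney transcripts move within 1 hour of the hormone. Of the 10 genes, 0 passed (limma, adjusted p below 0.05), where 0.0853% of all 19938 genes did (0.0802% higher and 0.00502% lower). Before adjustment Mmp7 and Timp1, 2 of the 10, had p below 0.05 (limma), each higher, as had 3063 of all 19938 genes in either direction. In 0 of the 10 did the groups separate, against 7.01% of all genes (4.09% higher and 2.92% lower). The median log2 difference of the 10 was 0.04, as was that of all genes. No member passed in any of the 23 alternative analyses. Without WT FGF23 replicates 1 and 2 the differences were closer to 0 for Timp3 (-0.05), Timp4 (0.08) and Mmp14 (-0.04), as for Mmp7. Timp1 read 5.23 and 4.87 on the FGF23 arrays then left, against 4.81 to 4.98 on vehicle arrays. The widest interval was that of Mmp12, from -0.72 to 0.79, whose error takes in the spread among KL null arrays.

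KL null against vehicle separated 4 of the 10 genes without overlap, 3 higher (Mmp12, Timp1 and Mmp7) and 1 lower (Timp3), where 6.35% of all genes were separated upward and 7.44% downward. Because the choice of genes drew on this comparison, nothing is read from that count. The median difference was 0.23 for the 10 genes and 0.03 for all genes. Both comparisons use the same 4 vehicle arrays, so a vehicle array that stands apart moves both.

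**Figure D5:**
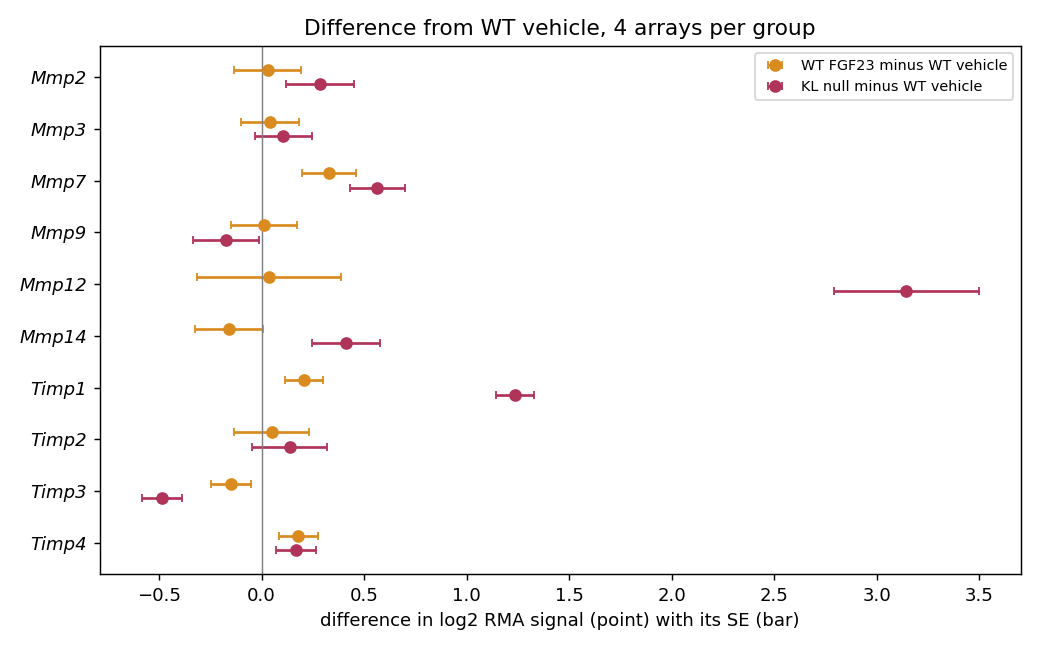
Difference in log2 RMA signal from WT vehicle with its SE for the 10 genes, in orange for WT FGF23 and in red for KL null, 4 arrays per group. The KL null points of Mmp12 (3.15) and Timp1 (1.24) stand far to the right, that of Timp3 (-0.49) to the left, and the FGF23 points lie between -0.16 and 0.33.

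The wider pathway was described with 75 measured genes, made up of other MMPs, ADAM and ADAMTS proteases, astacins, the plasminogen system, regulators of MMPs, and other matrix-degrading proteases with their inhibitors. In KL null against vehicle 4 of them were called higher and 8 lower (limma over all genes), which is 16% of the list, where 8.01% of all genes were called. With each array centred on a common median the split was 2 higher and 11 lower. Over all genes the same step gave 428 higher and 1239 lower, against 713 and 885 without it. Ctss, the macrophage and antigen-presenting cell protease cathepsin S, was 2.99-fold higher, with 9.18, 10.46, 9.9 and 9.91 in KL null kidneys, against 8.4, 8.27, 8.45 and 8.02 in vehicle kidneys (log2 difference 1.58, adjusted p = 0.000486). Its lowest KL null array was again replicate 1. Cd44, a hyaluronan receptor that can dock MMPs at the cell surface, was higher by 0.72 (adjusted p = 0.00517). The plasminogen receptors Plgrkt (0.36, adjusted p = 0.0384) and Anxa2 (0.33, adjusted p = 0.0494) were the other genes called higher.

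Mep1b encodes a meprin of the proximal tubule brush border and ran beside the tubule markers called lower, though not beside Umod and Slc12a1. Among the called genes the largest decreases were those of Mep1b (-0.70, adjusted p = 0.0192) and Serpinf2, the alpha-2-antiplasmin that inhibits plasmin (-0.60, adjusted p = 0.0029). They were followed by Mmp13, given with its neighbours, and by Adam12, a membrane-bound ADAM protease (-0.58, adjusted p = 0.0102). Adamts8, a secreted protease, fell by 0.46 (adjusted p = 0.0351) and Furin, the proprotein convertase that activates pro-Mmp14, by 0.42 (adjusted p = 0.0252). The other 2 calls, outside the rule for named genes and listed after their values were seen, were Adam15 (-0.39, adjusted p = 0.0268) and Hpn (-0.35, adjusted p = 0.0229). Of the 16 other MMPs, Mmp13 was the one that passed, and 15 did not. Reck, a membrane-anchored MMP inhibitor, had a difference of -0.11 (adjusted p = 0.695), and Adam17, the sheddase that Timp3 inhibits, of 0.02 (adjusted p = 0.918).

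The count of 12 was 6 without WT vehicle replicate 1, 5 without WT vehicle replicate 3 and 6 without KL null replicate 3. Calls over all genes fell as well, from 1598 to 831, 828 and 856 in the same order. Ctss, Cd44, Serpinf2, Mmp13 and Adam12 passed in all 23 alternatives, with highest adjusted p of 0.00314, 0.02, 0.029, 0.0344 and 0.0426 in that order. Mep1b lost its call without WT vehicle replicate 3 (adjusted p = 0.0716). Adamts8 lost it without WT vehicle replicates 1 or 3 or KL null replicates 2 or 3, and Furin without WT vehicle replicates 1 or 3 or KL null replicates 1, 2 or 3 (highest adjusted p among these 0.123 and 0.0918). Without KL null replicates 1 and 2 together these genes had adjusted p of 0.177 and 0.143. Plgrkt lost it without WT FGF23 replicate 4, any 1 vehicle array or KL null replicates 3 or 4, and Anxa2 without WT FGF23 replicates 2 or 4, any 1 vehicle array or KL null replicates 2, 3 or 4 (highest 0.116 and 0.147). After centring their adjusted p were 0.108 and 0.128, and with only the 2 groups compared that of Plgrkt was 0.0676.

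After FGF23, 0 of the 75 pathway genes passed (limma), and the median log2 difference was 0.06. The 3 smallest p-values belonged to Plg, which encodes plasminogen (0.34, adjusted p = 0.241), Elane, neutrophil elastase (0.40, adjusted p = 0.241), and Hyal2, a hyaluronidase (0.23, adjusted p = 0.252). In all 3, which were picked for their small p, the 4 FGF23 arrays lay above the 4 vehicle arrays. Over the 75 genes the groups separated upward in 4 and downward in 1, where 4.09% and 2.92% of all genes did. Without WT FGF23 replicates 1 and 2 the Elane difference was 0.23. Plg read 5.45, 5.33, 5.17 and 5.2 in FGF23 kidneys, against 5.07, 5.05, 4.92 and 4.74 in vehicle kidneys.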

How the data were processed

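Expression was measured in kidney RNA on 12 arrays. The deposited values are RMA signals on a log2 scale, 1 per probe set. Partek 6.2 is the program that the submitters' processing notes name. Details of its background step are not given in the sources used here. Lacking scanner files, no gene could be set against background. RMA compresses differences of dim genes, and signals of different genes were not compared. Of 28853 probe sets 21789 had 1 gene symbol, which gave 19938 genes, each read by its probe set of highest mean. The members and lists were chosen with earlier results of these data known. Group differences came from limma 3.58.1 under R 4.3.3 (3 group means, 12 arrays, 9 residual degrees of freedom, two-sided, Benjamini-Hochberg over all genes, threshold 0.05) after a check on simulated data. Limma p-values measure the spread between these arrays. Of 81 listed pathway genes 75 were measured, and of 74 marker entries 70. Named pathway genes are all called ones up to the 6 largest rises and 6 largest falls, or the 3 smallest p where none passed. For Mmp12 and Timp1 the 5 genes of highest r are named, without predicted genes and the like. Replicate numbers were not taken as pairs, since r of deviations between same-numbered arrays was not above 0.1 in every pair. These r ran from -0.216 to 0.259 (median 0.128, against a median of -0.034 between other arrays). Between WT FGF23 and KL null they were 0.223, 0.143, 0.259 and 0.188, and with WT vehicle arrays they had both signs. This rule therefore does not decide whether the numbers pair the arrays. Summaries used pandas 2.3.3 on Python 3.11.15, and plots matplotlib 3.10.9. Alternatives covered centring, quantile normalization, moderation, weights, samples fitted, probe set choice, a filter on dim genes, array spread, the replicate number and arrays left out.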

Additional observations from a re-analysis of the deposited data

Results flagged for a closer look

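Among 69 groups of 4 arrays examined (the 10 genes and the pathway genes named), 1 held an array far from the others: Adamts8 in KL null replicate 2, at 5.29, where the other KL null arrays lay between 5.63 and 5.67. Chance flags about 1 group in 20. Adamts8 was called lower in KL null (adjusted p = 0.0351, limma), and without this array the call was lost (log2 difference -0.37, adjusted p = 0.11).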

How the results depend on the processing

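Over 23 alternatives the number of the 10 genes called after FGF23 was 0 in each, as was the number of pathway genes. In KL null, Mmp12 and Timp1 kept log2 differences of 2.79 to 3.64 and 1.19 to 1.27 when single arrays were left out. Mmp7 had 0.74 without KL null replicates 1 and 2 together. Pathway calls in KL null ran from 5 to 15 without single arrays, 2 to 7 higher and 3 to 11 lower. They were 19 with array quality weights, 7 of them higher. Higher calls were 2 after centring on a common median and 7 with array spread as a covariate, and lower calls were 5 without KL null replicates 1 and 2 together. Over all genes centring left 428 higher calls in KL null, against 713 without it. With the replicate number as a block (replicate block) 1548 genes were called in KL null and 6 after FGF23, against 1598 and 17 without it, and these numbers are not known to pair the arrays. Calls after FGF23 over all genes ran from 4 to 14 without single arrays. They were 6 after centring, 10 after quantile normalization, 7 with only the groups compared and 11 with array spread as a covariate. Calls in KL null ran from 828 to 1728 without single arrays and were 2852 with weights.

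Differences after FGF23 that lay near 0 changed sign. With centring they were -0.043 for Mmp2, -0.030 for Mmp3, -0.062 for Mmp9, -0.038 for Mmp12 and -0.022 for Timp2. With quantile normalization they were -0.00031 for Mmp2, -0.072 for Mmp3, -0.111 for Mmp9 and -0.042 for Mmp12. With weights they were -0.043 for Mmp2 and -0.066 for Mmp9, and with array spread as a covariate -0.067 for Mmp3, -0.166 for Mmp9 and 0.126 for Mmp14. Without WT FGF23 replicates 1 and 2 together they were -0.040 for Mmp3 and -0.088 for Mmp9. Without single arrays they ran from -0.15 to 0.14 for Mmp2, -0.10 to 0.14 for Mmp3, -0.079 to 0.104 for Mmp9, -0.052 to 0.108 for Mmp12 and -0.10 to 0.14 for Timp2. The cause was not tested. With a filter on dim genes, 4 of the 10 genes (Mmp3, Mmp7, Mmp9 and Timp4) were left out and have no value.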

Other observations

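Timp1, Timp3 and Timp4 each lie within the span of a synapsin gene (Syn1, Syn3 and Syn2), which encode proteins of synaptic vesicles, and Timp2 overlaps Cep295nl. Syn1 had a log2 difference of 0.07 in KL null (SE 0.088, adjusted p = 0.719, limma), where its inner gene Timp1 had 1.24. Syn3 had -0.18 (adjusted p = 0.291), where Timp3 had -0.49, and Syn2 had -0.22 (adjusted p = 0.142), where Timp4 had 0.17. Cep295nl had 0.31 (adjusted p = 0.12) in KL null and 0.36 (adjusted p = 0.252) after FGF23. None of these 4 genes passed in either comparison. They were chosen by position after the values of the TIMP genes were seen.

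Among the other MMPs, Mmp19 had the largest positive difference in KL null, 0.44 (adjusted p = 0.0715). Mmp8, the collagenase of neutrophils, separated FGF23 from vehicle, with 3.77, 3.86, 3.72 and 3.74 in FGF23 kidneys, against 3.67, 3.48, 3.32 and 3.47 in vehicle kidneys (adjusted p = 0.258). These signals were dim, below the lower quartile of gene means at 4.93. The mean of 10 neutrophil markers was 4.39 to 4.63 on FGF23 arrays, against 4.25 to 4.44 on vehicle arrays, and none of them passed. The FGF23 arrays above the vehicle range were replicates 1 and 2 (4.63 and 4.57), those of lowest spread, while replicates 3 and 4 (4.42 and 4.39) lay within it.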
